A study of Mus musculus with 8 samples.

Results

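Described here are 10 genes of class I antigen processing and peptide loading: B2m, Tap1, Tap2, Tapbp, Calr, Psmb8, Psmb9, Psmb10, Erap1 and Nlrc5. They were chosen by name, as rows of the deposited count table, which holds 26146 gene symbols. All 10 were in the table and all 10 passed the filter on low counts. PolyA RNA was sequenced in bulk from Lin-Sca1+Kit+ (LSK) cells, the sorted fraction of blood-forming cells that holds stem cells and early multipotent progenitors. The libraries came from 4 mice labelled Jmjd6 KO, in which, by the labels, a cell-type-specific Cre recombinase had deleted a floxed Jmjd6 gene in haematopoietic lineages, and from 4 mice labelled wild type. Each mouse gave a single library, so the p-values measure the spread between mice. The Jmjd6 protein is an oxygenase of the JmjC family that modifies other proteins, splicing factors among them. The sources used here do not name the Cre driver or the age of the mice, nor say whether the wild type mice carried Cre or a floxed allele.

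Class I histocompatibility molecules show peptides from inside the cell to CD8 T cells and to natural killer cells. Proteasomes cut proteins into peptides, the TAP transporter pumps them into the endoplasmic reticulum, aminopeptidases trim them, and a loading complex fits them into a heavy chain paired with beta-2 microglobulin. Interferons and the transactivator NLRC5 raise many of these genes together, and stem and progenitor cells of the bone marrow also display class I molecules without infection.

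None of the 10 genes passed the test of KO against wild type. The gene with the largest difference was Tap1, at 216 CPM in KO against 298 CPM in wild type, with every KO library below every wild type library. CPM is the count of a gene relative to the scaled size of its library. The light chain B2m stood at 92.5% of its wild type level, the loading genes Tapbp and Calr at 106% and 104%, and the trimming enzyme gene Erap1 at 103%. Psmb8 and Psmb10 of the immunoproteasome lay above the wild type range in 2 of the 4 KO libraries, replicates 3 and 4.

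Some libraries stood apart. Total counts ran from 9344779 to 15079960. Jmjd6 itself was at 52.5, 63.7, 54.6 and 63.7 CPM in wild type replicates 1 to 4 and at 28.7, 28.1, 30.7 and 27.5 CPM in KO replicates 1 to 4, without overlap. The KO mean was 49.0% of the wild type mean, and gene totals cannot show whether the floxed part was absent from the RNA that remained. KO replicate 3 had a score of 83.9 on the first principal component, against -28.0 to 9.41 in the other libraries. Wild type replicate 4 and KO replicate 3 had 0 counts of 4 Y-linked genes together, against 3660 to 4814 in the other 6 libraries. Car1, an erythroid gene, was at 339 CPM in wild type replicate 1 and at no more than 41.2 CPM elsewhere. The same library had Elane, a granule gene, at 785 CPM, against at most 123 CPM elsewhere. Its summed neutrophil and granule markers were at 4735 CPM, against at most 2125 CPM elsewhere. The sort markers Kit, at 416 to 508 CPM, and Ly6a (Sca1), at 86.1 to 227 CPM, were present in all 8 libraries. Of 11 markers of the gate and of stem cells, 0 passed by edgeR and 3 had an unadjusted p under 0.05. These were Hlf, at 178 to 276 CPM in wild type against 118 to 161 in KO, Mecom, at 32.7 to 75.0 against 23.9 to 43.5, and Slamf1, at 3.98 to 9.04 against 9.25 to 11.9. Hlf and Slamf1 did not overlap between the groups, Hlf lower and Slamf1 higher in KO. Of all genes tested, 3.28% were lower and 2.78% higher in KO at that unadjusted p by edgeR. Without overlap, 2.11% were lower and 2.08% higher. Of 7 T cell markers only Cd4 exceeded 2 CPM in any library, and Cd3e had counts in 1 library only, at 0.0631 CPM.

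Some members lie side by side in the genome, in the mouse build mm10 (GRCm38), with gene limits from GENCODE M21. Psmb9 (chromosome 17, 34181987 to 34187764, minus strand), Tap1 (34187553 to 34197225), Psmb8 (34197721 to 34201454) and Tap2 (34203527 to 34216321, the last 3 on the plus strand) fill a block of 34.3 kb within the histocompatibility region. Tapbp lies on the same chromosome, from 33915899 to 33929292. Chromosome 8 holds Calr (84841850 to 84846934), Nlrc5 (94434356 to 94527272) and Psmb10 (105935735 to 105938444), which are not neighbours. B2m is on chromosome 2 (122147686 to 122153083) and Erap1 on chromosome 13 (74639568 to 74693201). All these limits are of whole genes, exons and introns together, and the counts are gene totals.

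Promoter windows of 300 bases, 250 before a gene's start and 50 after, were found for 8 of the 10 genes in RefSeq (GRCm38.p6), all except Nlrc5 and Tap2. They were searched on both strands for 5 patterns. These were GAAA, any 2 bases and GAAA (the core of interferon-stimulated response elements), TTCNNNGAA (STAT dimers), CCAAT (the NF-Y box), TGACGTCA (the CREB and ATF palindrome), and GGG, any 5 bases and CC (a loose NF-kB pattern). The interferon pattern was found in B2m and Erap1, and in 3.44% of all 32851 windows. A STAT pattern was found in Psmb8, and in 8.30% of windows, whereas TGACGTCA was in none of the 8, and in 1.79% of windows. The Psmb8 window (34197945 to 34198244) follows the RefSeq start. GENCODE starts the gene at 34197721 and its principal transcript at 34197790, so by GENCODE this window lies inside the gene. CCAAT was in B2m, Calr, Tapbp, Psmb9 and Tap1, and in 37.4% of windows, and the loose NF-kB pattern in B2m, Calr, Psmb9 and Tap1, and in 50.8% of windows. In the capitals of B2m below, the NF-kB pattern matches on both strands, 1 base apart, and overlaps no other pattern. Psmb10 held none of the 5. The stretches below are printed 5′ to 3′ on the strand of the gene, with the matches in capitals. The first is shown because the light chain gene holds 3 of the patterns close together, on chr2:122147542-122147646 (plus strand). The second is on chr13:74639839-74639868 (plus strand), where the match spans the RefSeq start of Erap1. GENCODE starts Erap1 at 74639568, upstream of this stretch.
B2m: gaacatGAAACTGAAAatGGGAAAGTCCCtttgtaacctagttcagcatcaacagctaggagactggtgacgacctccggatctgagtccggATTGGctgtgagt
Erap1: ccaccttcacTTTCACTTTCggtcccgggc

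Psmb9 and Tap1 are read in opposite directions from 1 stretch, with 225 bases between their RefSeq starts. They are shown because these neighbours, which share a promoter stretch, had log2 fold changes of -0.01 and -0.46, given with their errors further on. The same CCAAT box lies in the windows of both genes. It is given from the Psmb9 strand on chr17:34187321-34187350 and from the Tap1 strand on chr17:34187322-34187351, which is 1 base further along.
Psmb9: gcgcagccgctgATTGGaaagccgagcccc
Tap1: gggctcggctttCCAATcagcggctgcgcg
A match is a pattern of letters, and nothing was measured on factor binding here. GENCODE places the start of Psmb9 further upstream, inside Tap1, so that 212 exon bases belong to both genes on opposite strands. Whether the counting used strand is not stated, so reads from those bases may not have been told apart. Psmb8 likewise shares 498 exon bases with the antisense gene Gm20496, not analysed here.

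The levels of the members were set side by side per length, as CPM per kb of the principal transcript of GENCODE. In wild type, B2m was highest at 1883 ± 211 CPM per kb (SD, n = 4), followed by Psmb8 at 346 ± 42.5 and Calr at 247 ± 42.5 CPM per kb. Psmb9 (137 ± 19.7), Tap2 (124 ± 49.1), Tapbp (109 ± 18.0), Tap1 (101 ± 11.3) and Psmb10 (99.7 ± 12.2) came next, and neighbours in that order overlapped in their wild type ranges. Erap1 stood at 29.6 ± 7.88 and Nlrc5 at 8.53 ± 1.71 CPM per kb, each clear of its neighbour above. Psmb8 and Calr overlapped in wild type but not in KO. In KO the Tap1 libraries, at 73.2 ± 13.4, all lay below the ranges of Tapbp (115 ± 9.64) and Psmb10 (115 ± 27.3). The union of all exons as the length was an alternative chosen after seeing the data. By it, the wild type mean of Calr stood above that of Psmb8, and that of Psmb9 below that of Tap1. In KO both orders were the other way, with Psmb8 at 199.9 and Calr at 194.5 CPM per kb, and Psmb9 at 50.4 and Tap1 at 39.5. In both groups B2m remained at the top and Erap1 and Nlrc5 at the bottom.

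**Figure D1:**
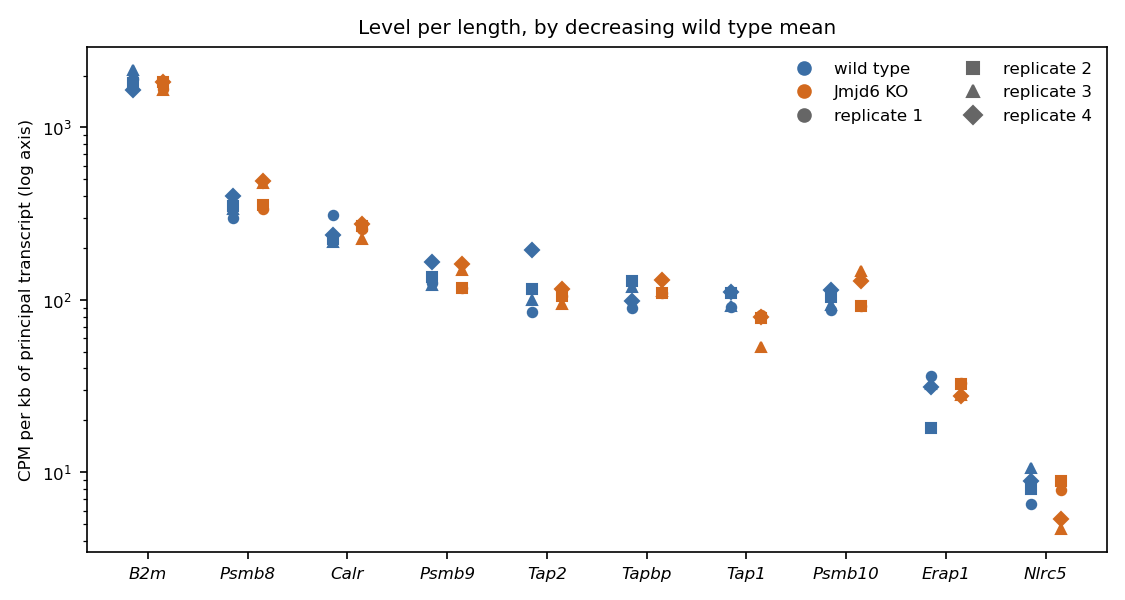
Level of the 10 genes in CPM per kb of principal transcript on a log axis, ordered by wild type mean, with 1 point per library (blue wild type, orange Jmjd6 KO, shape for the replicate number). B2m lies near 1883 CPM per kb in wild type and Nlrc5 near 8.53, and Tap1 is the gene whose orange points all lie below the blue ones.

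The light chain came first among the values by library. B2m encodes beta-2 microglobulin, without which heavy chains do not reach the cell surface. It was at 1645, 1557, 1853 and 1421 CPM in wild type replicates 1 to 4 and at 1433, 1572, 1415 and 1569 CPM in KO replicates 1 to 4, and the groups overlapped. The log2 fold change, KO over wild type, was -0.11 (SE 0.14, 95% interval from -0.41 to 0.18, adjusted p = 0.886 by edgeR's quasi-likelihood test over all 13439 genes). It ran from -0.17 without wild type replicate 4 to -0.04 without wild type replicate 3. Within groups B2m was among the steadiest genes measured, with an SD of log2 CPM of 0.13, where the median over all genes was 0.33. In bulk RNA, fewer cells of a type and less RNA per cell cannot be told apart, here and in all that follows.

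Tap1 and Tap2 encode the subunits of the peptide transporter, which works only as the pair. Tap1 was at 267, 325, 270.5 and 329 CPM in the wild type libraries and at 240.2, 232, 157 and 236 CPM in the KO libraries. Every KO value lay below every wild type value, with KO replicate 3 far below the other KO replicates. The log2 fold change was -0.46 (SE 0.17, 95% interval from -0.82 to -0.10). Its p by edgeR was 0.0170 unadjusted and 0.771 adjusted over all genes, so it did not pass. Without KO replicate 3 the Tap1 value was -0.34, and without wild type replicate 4 as well, in the 6 libraries with Y-linked counts, it was -0.29 with an unadjusted p of 0.0585 by edgeR. The sums of T cell and of natural killer cell markers differed in the other direction, higher in KO. Summed T cell markers were at 5.85 to 13.4 CPM in wild type and 14.4 to 23.8 CPM in KO, and summed natural killer markers at 128 to 236 and 263 to 381 CPM. Those sums were mostly Cd4 and Nkg7, while Cd3e and the natural killer receptor gene Ncr1 were at no more than 0.504 CPM in any library. Of the 2 T cell markers that were tested, Cd4 was above 0 and Trbc2 below, with a log2 fold change of -0.30. The 3 natural killer markers that were tested were all above 0. Vsig4, a macrophage gene, was at 0.200 to 1.198 CPM in wild type and at 3.18 to 11.4 in KO. The summed macrophage and dendritic markers overlapped, at 142 to 274 and at 133 to 265 CPM. Of the 8 such markers that were tested, 5 were above 0. Csf1r, Cd74 and Adgre1 were below, with log2 fold changes of -0.41, -0.35 and -0.10. Whether what these markers show, or the stem cell markers Hlf and Slamf1, bears on the Tap1 difference was not tested.

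Tap2 overlapped between the groups. It was at 291, 397, 345 and 671 CPM in wild type and at 362, 362, 324 and 400.4 CPM in KO, so all KO values lay inside the wild type range. Wild type replicate 4 alone lay above 400.4 CPM. Tap2 had a log2 fold change of -0.23 (SE 0.23, 95% interval from -0.74 to 0.27, with an adjusted p of 0.867 in the edgeR test), and of 0.07 without wild type replicate 4, so that 1 library set its sign. Tap2 shares 533 exon bases with Gm15821, an RNA gene annotated on the opposite strand, which was also highest in wild type replicate 4, at 296 CPM, where the other 7 libraries had 125 to 184 CPM. Reads of Tap2 and Gm15821 may not have been told apart.

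The ratio of Tap1 to Tap2 counts within a library does not depend on the scaling between libraries. It was 0.920, 0.817, 0.785 and 0.490 in wild type and 0.663, 0.640, 0.485 and 0.589 in KO. The groups overlapped through wild type replicate 4. The difference on the log2 scale was -0.31 (two-sided exact permutation p = 0.2, adjusted p = 0.333 over the 5 ratios tested, n = 4 per group), and -0.51 without wild type replicate 4. The smallest p that this exact test can give with 4 against 4 libraries is 0.0286.

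The loading complex holds an empty class I molecule beside the transporter until a peptide fits. Tapbp encodes tapasin, the bridge between transporter and heavy chain, and Calr encodes calreticulin, a calcium-binding chaperone that holds the sugar of the new heavy chain. Tapbp was at 260.3, 374, 344 and 286 CPM in wild type and at 319, 316, 325 and 376 CPM in KO. Its log2 fold change was 0.08 (SE 0.15), and edgeR gave an adjusted p of 0.928. It was 0.01 without wild type replicate 1 and 0.17 without wild type replicate 2. Calr was at 677, 491, 475 and 517 CPM in wild type and at 562, 584, 490.3 and 604 CPM in KO. Its log2 fold change was 0.05 (SE 0.15), and edgeR gave an adjusted p of 0.955. For both genes the KO spread was narrower than the wild type spread and the groups overlapped. The 95% interval ran from -0.25 to 0.41 for Tapbp and from -0.28 to 0.39 for Calr, so changes of such sizes in either direction were within the error. Tapbp shares 149 exon bases with Zbtb22 and 904 with the antisense gene Gm19412, which had group means of 45.3 (wild type) and 46.8 CPM (KO).

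**Figure D2:**
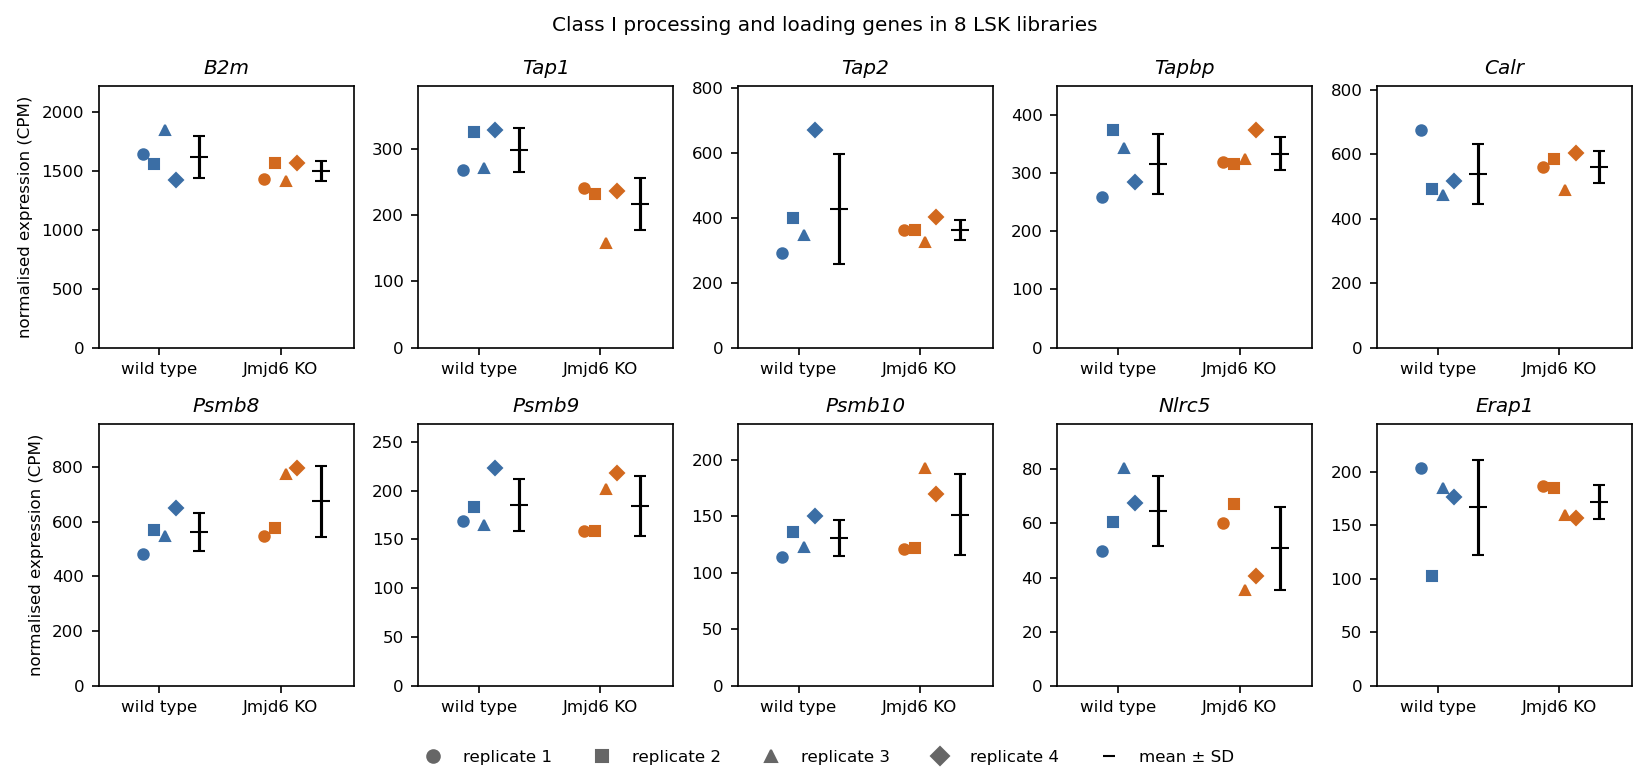
Normalised expression in CPM of each of the 10 genes, 1 panel per gene with the axis starting at 0, 1 point per library (shape for the replicate number) and the mean ± SD of the 4 libraries beside each group. The groups do not overlap in Tap1 only, and KO replicates 3 and 4 lie above KO replicates 1 and 2 in Psmb8, Psmb9 and Psmb10.

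Psmb8, Psmb9 and Psmb10 encode the catalytic subunits of the immunoproteasome, which take the places of the constitutive subunits encoded by Psmb5, Psmb6 and Psmb7 and change which peptides are cut. Psmb8 was at 484, 569, 547 and 651 CPM in wild type and at 549, 579, 777 and 799 CPM in KO. Its log2 fold change was 0.26 (SE 0.17, 95% interval from -0.10 to 0.63, and in edgeR an adjusted p of 0.832). Psmb10 was at 114, 136, 122 and 150.3 CPM in wild type and at 121, 121, 193 and 169 CPM in KO. Its log2 fold change was 0.21 (SE 0.18, 95% interval from -0.18 to 0.60, and in edgeR an adjusted p of 0.850). In both genes KO replicates 1 and 2 lay inside the wild type range and KO replicates 3 and 4 above it. Without KO replicate 3 the value of Psmb10 was 0.07, and limma voom, which weights the libraries, gave 0.09 for Psmb8.

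Psmb9 was at 169, 183, 165 and 224 CPM in wild type and at 159, 159, 202 and 219 CPM in KO. Its log2 fold change was -0.01 (SE 0.16, 95% interval from -0.36 to 0.35, adjusted p = 0.995 by edgeR), so the neighbour that shares a promoter stretch with Tap1 had a mean of 185 CPM in both groups. The ratio of Tap1 to Psmb9, chosen after its values were seen and therefore not tested, was 1.58, 1.77, 1.64 and 1.47 in wild type and 1.51, 1.46, 0.778 and 1.08 in KO. KO replicate 1 lay inside the wild type range, KO replicate 2 just below it and KO replicates 3 and 4 further below. The log2 difference of that ratio was -0.47, and -0.27 without KO replicate 3.

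Constitutive subunits had the same pattern over the KO replicates. Psmb5 was at 137, 139, 165 and 202 CPM in KO replicates 1 to 4, Psmb6 at 206, 203, 449 and 291 CPM, and Psmb7 at 118, 121, 168 and 165 CPM. KO replicates 3 and 4 both exceeded KO replicates 1 and 2 in all 3 immunoproteasome genes, all 3 constitutive catalytic genes and all 11 other genes of the 20S core, where the same held for 24.3% of all genes tested. Among the 7 members outside the proteasome it held for 1, Tapbp. This count was made after the values were seen and has no test.

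In the ratios of the inducible to the constitutive subunit, KO replicates 3 and 4 were no longer both above KO replicates 1 and 2. Psmb8 to Psmb5 was 3.32, 4.40, 4.84 and 4.13 in wild type and 4.02, 4.18, 4.70 and 3.96 in KO, with a log2 difference of 0.02 (two-sided exact permutation p = 0.914, adjusted p = 0.914, n = 4 per group). Psmb10 to Psmb7 was 0.847, 1.31, 1.23 and 1.19 in wild type and 1.03, 1.00, 1.15 and 1.02 in KO, with a log2 difference of -0.11 (exact permutation p = 0.514, adjusted p = 0.643). In these pairs every KO value lay inside the wild type range. For Psmb10 to Psmb7 this rested on wild type replicate 1, at 0.847, as the other wild type libraries all lay above every KO library. The difference of Psmb10 to Psmb7 was -0.25 without wild type replicate 1 and -0.04 without wild type replicate 2, and that of Psmb8 to Psmb5 had no steady sign when single libraries were left out. Psmb7 shares 405 exon bases with Nek6 on the opposite strand, so reads of Psmb7 and Nek6 may not have been told apart.

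Psmb9 to Psmb6 was the ratio whose groups did not overlap. It was 0.809, 0.872, 0.851 and 0.882 in wild type and 0.770, 0.784, 0.450 and 0.751 in KO, lower in all 4 KO libraries. The log2 difference was -0.34, with a two-sided exact permutation p of 0.0286 and an adjusted p of 0.143 over the 5 ratios, so it did not pass. As 0.0286 is the smallest p of this test, a ratio alone at it cannot pass after adjustment over 5. The log2 difference was -0.15 without KO replicate 3, the library in which Psmb6 reached 449 CPM, and -0.14 when wild type replicate 4 was left out too. Per length, Psmb9 made up 33.5% ± 0.841 (SD, n = 4) of the summed level of Psmb9 and Psmb6 in wild type and 28.6% ± 5.13 in KO. Psmb8 made up 69.5% ± 3.44 of its pair in wild type and 69.9% ± 1.61 in KO, and Psmb10 42.8% to 53.8% in wild type and 47.0% to 50.4% in KO. With the union of exons as the length, the wild type shares were 30.4%, 52.4% and 69.3% for Psmb9, Psmb8 and Psmb10, so the order among the pairs depends on the length used.

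**Figure D3:**
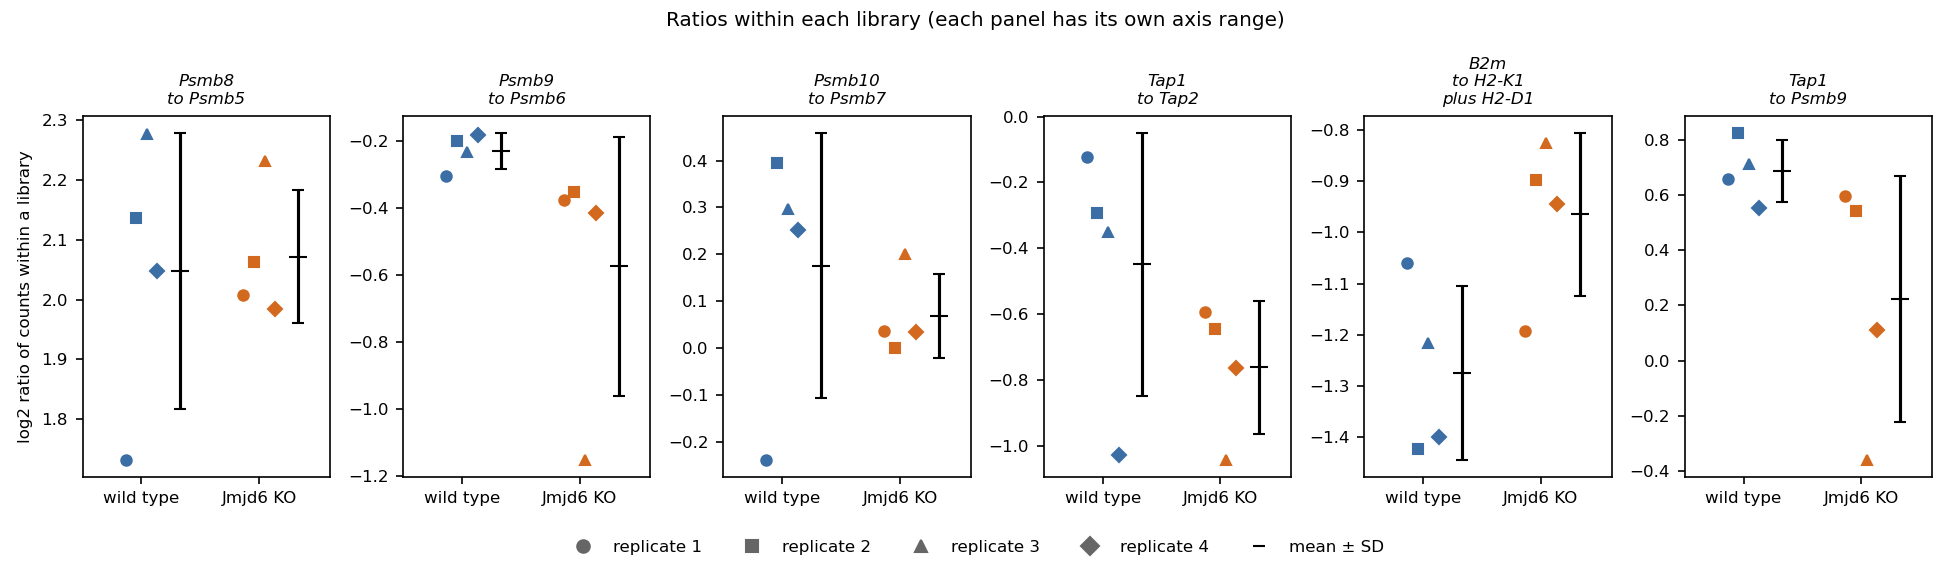
Log2 ratio of the counts of the named genes within each library, 1 panel per ratio with its own axis range, points by library and mean ± SD beside each group. The groups are apart in Psmb9 to Psmb6 only, where KO replicate 3 lies at -1.15 and the other KO libraries between -0.41 and -0.35.

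Peptides that enter too long are trimmed by the aminopeptidase that Erap1 encodes. Erap1 was at 204, 102, 184 and 177 CPM in wild type and at 187, 185, 159 and 156 CPM in KO. Wild type replicate 2 lay below all other libraries, and all KO values lay inside the wild type range. The log2 fold change was 0.04 (SE 0.20, 95% interval from -0.39 to 0.47, adjusted p = 0.972 by edgeR), and -0.13 without wild type replicate 2. Erap1 shares 834 exon bases with Cast on the opposite strand, which had group means of 93.4 (wild type) and 80.7 CPM (KO).

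Nlrc5 encodes a protein of the NLR family that moves to the nucleus and switches on class I heavy chain, B2m, Tap1 and Psmb9 genes. It was the lowest of the members, with 451 to 1070 counts per library. Nlrc5 was at 49.8, 60.6, 80.6 and 67.5 CPM in wild type and at 60.2, 67.0, 35.3 and 40.5 CPM in KO. KO replicates 3 and 4 lay below all wild type libraries, and KO replicates 1 and 2 lay inside the wild type range. The log2 fold change was -0.35 (SE 0.23, 95% interval from -0.85 to 0.15, adjusted p = 0.833 by edgeR). The Nlrc5 value was -0.21 without KO replicate 3 and -0.23 without wild type replicate 3.

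At an adjusted p of 0.05, edgeR, DESeq2 and limma voom each called 0 of the 10 members. Of all genes tested, edgeR called 0.0595%, DESeq2 0.492% and limma voom 0.231%. At an unadjusted p under 0.05 by edgeR, 1 of the 10 was lower in KO, Tap1, and 0 were higher, against 3.28% and 2.78% of all genes. The groups were apart with KO lower in 1 of 10, again Tap1, and with KO higher in 0, against 2.11% and 2.08% of all genes. With 10 members, a share of 1 in 10 rests on a single gene. The median log2 fold change of the 10 was 0.02, with 5 above 0 and 5 below, and the median over all genes tested was -0.002.

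**Figure D4:**
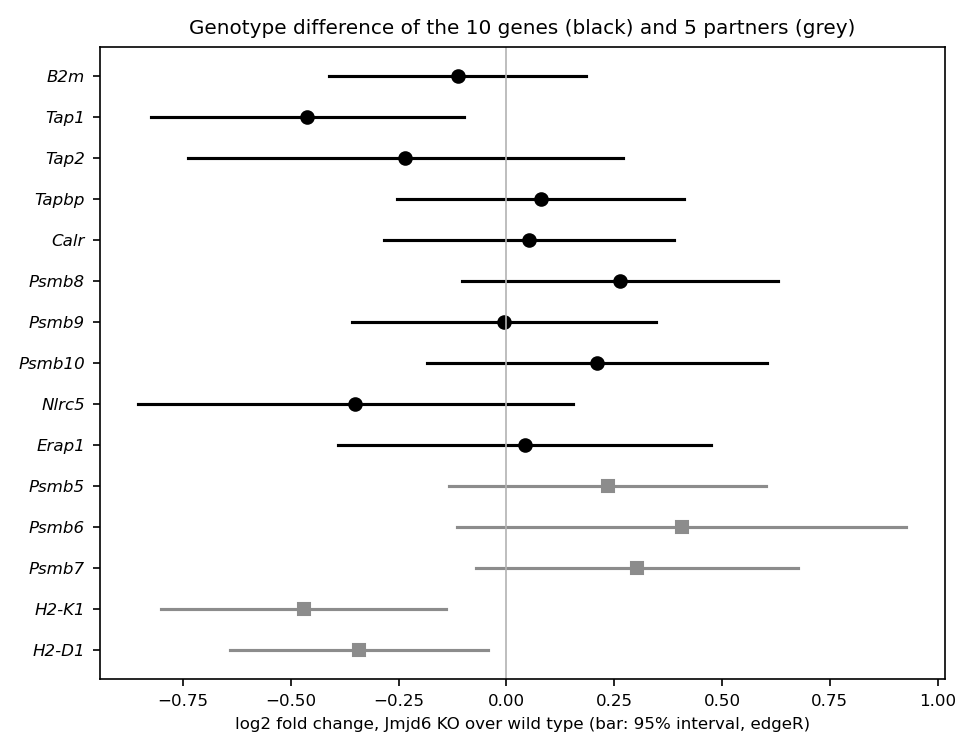
Log2 fold change, Jmjd6 KO over wild type, with its 95% interval from the edgeR fit, for the 10 genes (black circles) and for the constitutive proteasome subunits Psmb5, Psmb6 and Psmb7 and the heavy chains H2-K1 and H2-D1 (grey squares). Of the 10, only the interval of Tap1, from -0.82 to -0.10, does not reach 0, before any adjustment over genes.

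Among the heavy chains, the partners that these genes load, edgeR called 2 of 10 lower in KO, where DESeq2 called 4 and limma voom 3. Of all genes tested, edgeR called 0.0595%, DESeq2 0.492% and limma voom 0.231%, in either direction. The 2 called by edgeR were H2-Q7 and H2-Q6, with log2 fold changes of -2.54 and -2.28. H2-Q10 gave -1.73 with an edgeR adjusted p of 0.276. The list's median was -0.57, and 7 of 10 were lower at an unadjusted p under 0.05, against 3.28% of all genes. H2-K1, at 1686 ± 229 CPM in KO against 2335 ± 260 in wild type (SD, n = 4), and H2-D1, at 1246 ± 109 against 1579 ± 144, did not overlap between groups but did not pass. These genes are close copies of one another, so the split of reads among them is uncertain. The ratio of B2m to H2-K1 plus H2-D1, the classical heavy chains, was 0.480, 0.373, 0.430 and 0.379 in wild type and 0.438, 0.537, 0.564 and 0.520 in KO. KO replicate 1 lay inside the wild type range and the other 3 KO libraries above it. The log2 difference was 0.31 (two-sided exact permutation p = 0.0571, adjusted p = 0.143 over the 5 ratios).

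Other genes of the pathway were read from lists, and outside the heavy chains edgeR, DESeq2 and limma voom called 0 genes in each list. For the counts at an unadjusted p under 0.05 by edgeR, the shares of all genes were 3.28% lower in KO and 2.78% higher. Among 10 further loading and quality control genes 0 had an unadjusted p under 0.05 and the median was 0.01. Bcap31, an export receptor of the endoplasmic reticulum, gave a log2 fold change of 0.32, Sec61a1, the translocation channel, -0.22, and Hsp90b1, a chaperone, -0.21. Of 7 tested peptidases 0 had an unadjusted p under 0.05, and Blmh, Npepps and Lnpep gave 0.20, -0.21 and -0.26.

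Most genes of the proteasome lists had values above 0, with sizes that depended on the fit. All 3 constitutive catalytic genes and all 11 other 20S genes had positive values, with medians of 0.30 and 0.26, and 0 passed the test. By limma voom the medians were 0.15 and 0.09, with Psma1 and Psma5 below 0, and without KO replicate 3 they were 0.22 and 0.16. Psma4, Psma7 and Psmb3, subunits of the core, gave 0.36, 0.36 and 0.40, and 1 of the 11, Psma4, had an unadjusted p under 0.05. Of 9 activator and assembly genes 8 were above 0, with a median of 0.26, and 1, Psmg1, had an unadjusted p under 0.05. That median was 0.04 by limma voom and 0.14 without KO replicate 3. Psmg1, Pomp and Psmg4, which help to build the core, gave 0.46, 0.37 and 0.32. KO replicates 3 and 4 were the high KO libraries in the 20S genes, with Psma7 at 261, 251, 442 and 324 CPM in KO replicates 1 to 4. The activator genes Psme1, Psme3 and Psme4 did not follow this. Psme1 was lowest of the KO libraries in replicate 3, and Psme3 and Psme4 in replicate 4.

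Factors that act on class I promoters had a median of -0.04 over 16 genes, and 1 of them, Stat2, had an unadjusted p under 0.05. Stat2 and Irf9, which act together downstream of type I interferon, gave -0.53 and -0.32, and Nfkb1 gave 0.23. Stat2 levels were 59.7 ± 12.2 CPM (wild type) and 41.4 ± 7.17 CPM (KO, SD, n = 4), with an edgeR adjusted p of 0.772. The 8 genes of interferon receptors, their kinases and the inhibitor Socs1 had a median of -0.08 and 0 at an unadjusted p under 0.05. All except Socs1 were below 0, but without KO replicate 3 only 4 of the 8 were. Tyk2, Jak2 and Ifngr1 gave -0.60, -0.14 and -0.10.

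Genes that flank the members on chromosome 17 had a median of -0.03 over 23 genes. Of these 3 were lower in KO at an unadjusted p under 0.05, H2-Ob, Rgl2 and Phf1, with log2 fold changes of -0.54, -0.63 and -0.69, and 0 were higher. The shares of all genes at that p by edgeR were 3.28% lower and 2.78% higher. H2-Ob, which encodes a chain of the class II modulator DO, was at 148 to 229.5 CPM (wild type) and 116 to 142 CPM (KO), without overlap (edgeR adjusted p = 0.558). Of the 23 genes 11 lay above 0 and 12 below.

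**Figure D5:**
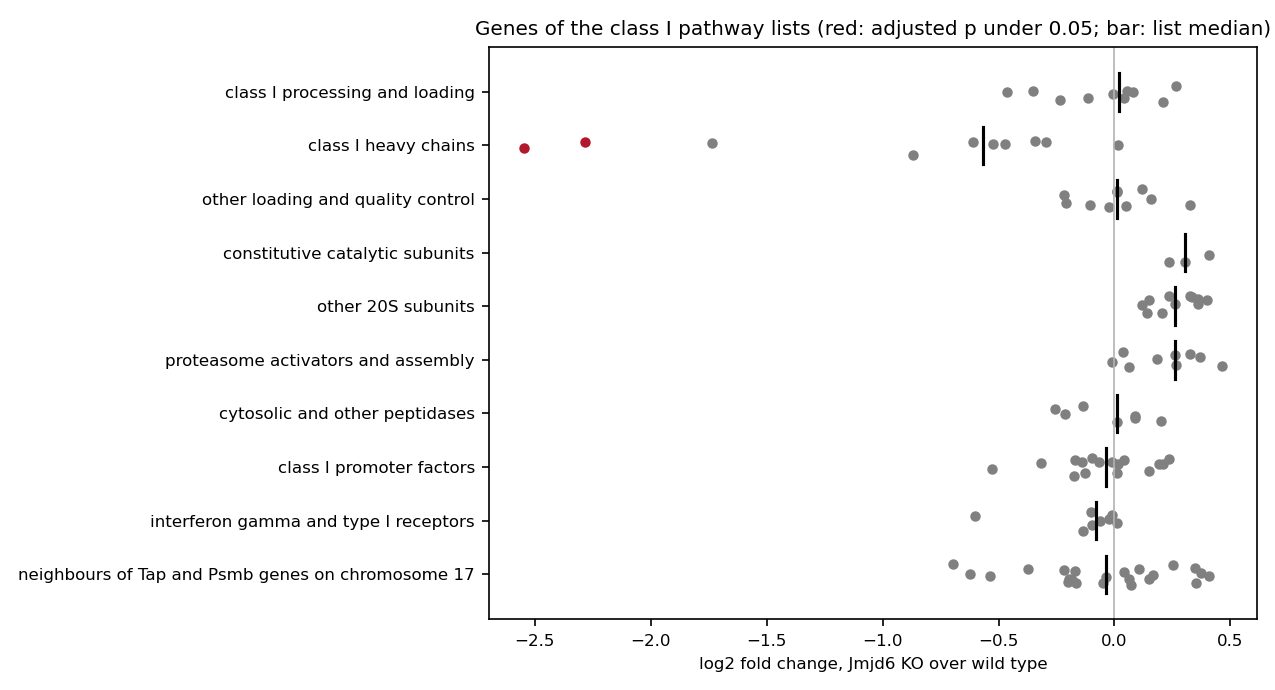
Log2 fold change, Jmjd6 KO over wild type, of every tested gene in each list of the class I pathway, 1 point per gene, with a bar at the list median (vertical scatter within a row carries no value). The processing and loading genes lie on both sides of 0 with a median of 0.02, the heavy chains have a median of -0.57, and the 2 red points are H2-Q7 and H2-Q6.

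For Tap1, B2m and Nlrc5 the genes with the most alike profile over the 8 libraries were found by the root mean square difference of log2 CPM, each gene centred on its mean, among 10252 other genes with a mean log2 CPM above 3. For Tap1 they were Ptgs1, Gm20605, Dtnb and Tmem259, with differences of 0.07, 0.07, 0.09 and 0.09 on the log2 scale, where the median gene differed by 0.41. Ptgs1 encodes cyclooxygenase 1. For Nlrc5 they were Tnfsf10, which encodes the death ligand TRAIL, Bcl9, Dvl3 and Ubr4, at 0.12, 0.14, 0.14 and 0.15. For B2m they were Sptssa, Efcab14, Cep120 and Nipa2, at 0.06, 0.07, 0.07 and 0.07, where the median gene differed by 0.30 and B2m itself varied by 0.12 around its mean. None of the other members was among the 4 nearest of these 3 genes.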

How the data were processed

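The authors deposited whole-number counts per gene symbol for 8 libraries of polyA RNA. Reads were aligned with HISAT2 to mm10, per the submitters' processing notes. The annotation, tool and strand setting of the counting are not stated in the labels or in those notes. Columns were matched to samples by genotype and replicate number.

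All 8 libraries entered 1 fit in edgeR 4.0.16 (R 4.3.3), KO against wild type, with its quasi-likelihood test, TMM scaling and no covariate. The default filter (at least 10 counts in enough libraries and 15 in all) kept 13439 genes. Benjamini-Hochberg adjustment ran over all of these, and an adjusted p under 0.05 was called. CPM used the TMM library sizes, and log2 CPM a prior count of 2. The common biological coefficient of variation was 27.8%. For within-library ratios an exact permutation test, two-sided, was used. The fit was tested on simulated counts with known changes. Lengths and positions came from GENCODE M21 and promoter windows from RefSeq GRCm38.p6.

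The members and lists were chosen with earlier results of these data known. Named genes were all members, every called gene of a list and up to 3 genes per list with the smallest p, and the 4 most alike genes of 3 members. Alternatives were scaling by DESeq2 size factors or by library size alone, no filter, a filter of CPM above 1 in at least 4 libraries, DESeq2 1.42.0, voom of limma 3.58.1 with sample weights, a replicate block, single libraries left out, 2 pairs of libraries left out, Y-linked expression as a covariate and a threshold of 0.1. Nrdc and Hbb-bt, in the lists, were not analysed here. A chi-square comparison of counts, made between libraries of the same group only, found none that repeated another. Library totals of 9344779 to 15079960 counts set the counting precision.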

Additional observations from a re-analysis of the deposited data

Results flagged for a closer look

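In 86 groups of 4 libraries, the members, the named genes and the 6 ratios were checked for a library whose gap to the nearest other, as a share of the group's range, exceeded Dixon's 95% critical value, and 4 did. Chance flags about 1 in 20 such groups. Tap1 in KO replicate 3 was at 157 CPM, and the other KO replicates at 232 to 240.2 CPM. In the same library the log2 ratio of Psmb9 to Psmb6 was -1.15, against -0.41 to -0.35. Tapbp in KO replicate 4 was at 376 CPM, against 316 to 325 CPM, and Hsp90b1 in KO replicate 1 was at 449 CPM, against 579 to 596 CPM.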

How the results depend on the processing

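Of the 10 members, 0 passed under any of the 19 alternatives run, and their median log2 fold change stayed between -0.07 and 0.07. The count of 8 genes past the threshold was 66 by DESeq2, 31 by limma voom, 15 with Y-linked expression as a covariate, 4 among the 6 libraries with Y-linked counts, 4 without wild type 1 and KO 3 together, and between 2 and 8 with single libraries left out. Same-numbered libraries did not deviate together (correlations from -0.19 to 0.03), and no wild type library correlated best with the KO library of its own number. With a replicate block the count was 3, and 0 members were called. Tap1 stayed below 0 under all 18 alternatives, from -0.52 to -0.29, with an unadjusted p under 0.05 in 17, all except the 6 libraries with Y-linked counts, and an adjusted p of at least 0.367. Of 180 member values under alternatives 10 turned sign, none of them called. With single libraries left out, Psmb9 ran from -0.098 to 0.097, Tap2 from -0.368 to 0.073, Erap1 from -0.133 to 0.164, Calr from -0.00414 to 0.194 and the log2 ratio of Psmb8 to Psmb5 from -0.0817 to 0.10. In the 6 libraries with Y-linked counts Psmb9 was 0.0504, Tap2 0.122 and that ratio -0.0295. The ratio was -0.135 without wild type 1 and KO 3 together, Psmb9 was 0.00146 with the covariate, and Psmb10 was -0.00132 by limma voom. List medians, compared after seeing the data, turned sign by limma voom and without KO replicate 3 for the promoter factors (0.02 and 0.01), the chromosome 17 neighbours (0.03 and 0.07) and the other loading genes (-0.03 in both). The cause of these turns was not tested. With 1 library left out the exact test on the ratios cannot pass.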
